A study of Mus musculus with 12 samples.

Results

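The genes described here encode keratin-associated proteins, the small matrix proteins of the hair shaft, and their DNA was examined in mouse T helper cells. Members were all gene areas whose name in the deposited table starts with Krtap. They numbered 55 of 37544 gene areas, with 5 on chromosome 7, 3 on chromosome 10, 21 on chromosome 11, 24 on chromosome 16 and 2 on chromosome 1. A gene area is the span of a transcript, and its value is the authors' deposited signal, which is never negative and is rounded to 1 decimal.

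Keratin-associated proteins are made in the late cells of the hair cortex and cuticle, where they bind hair keratin filaments and crosslink them into a rigid fibre. They are grouped by composition into high sulfur, ultrahigh sulfur and high glycine-tyrosine families. Most of their genes are short, have a single coding exon and lie side by side in clusters of close paralogs. They belong to the hair follicle and are not known for any part in T cells, so their DNA serves here as a set of short gene areas outside the T cell programme; transcription was not measured in these libraries. In mammalian DNA, 5-methylcytosine (5mC) lies mostly at CG dinucleotides, and Tet enzymes oxidise it to 5-hydroxymethylcytosine (5hmC), a mark known from the bodies of transcribed genes.

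The libraries came from Th1, Th2, iTreg, Th17 and naive T cells, each precipitated once with an antibody to 5hmC and once with an antibody to 5mC. Control IgG and input DNA libraries were made from Th17 cells only, so there were 12 libraries, 1 per group, and no difference between cell types has a replicate check. The design names CD2(Cre)Tet2(f/f) mice, in which Cre under the CD2 promoter deletes Tet2 in lymphocytes, and wild-type littermates on a mixed background; the labels do not say which genotype gave which library. Animal age, culture conditions and any pooling of animals are not stated in the labels.

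The labels state no read numbers, so depth is unknown and no counting interval was computed. The labels were checked against cytokine genes. In 5hmC, Ifng was highest in Th1 and Il4 in Th2, but Il17a read 31.3 in the library labelled iTreg and 8.8 in that labelled Th17, and Il17f read 32.8 and 5.3. The 5hmC libraries are therefore called the ones labelled iTreg and labelled Th17, and directions drawn from them carry this doubt.

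The gene areas of the members were short, with a median of 830 bp against 6256 bp over all gene areas. Of the 55 members, 47 had exactly the length that RefSeq gives for the gene, so the area is the whole transcript. The cluster on chromosome 7 spans chr7:149360436-149490407 in build mm9 and holds the ultrahigh sulfur Krtap5 genes, known from the hair cuticle. The cluster on chromosome 10 spans chr10:77183330-77299995 (mm9) and holds Krtap10-4, Krtap10-10 and Krtap12-1, of families known from the human hair cuticle. The cluster on chromosome 11 spans chr11:99411445-99855307 (mm9), with the hair keratin genes Krt40 and Krt33a as its neighbours. The high sulfur families 1, 2 and 3 lie at one end and most of the ultrahigh sulfur families 4, 9 and 17 beyond them. Krtap9-3 lies between Krtap1-3 and Krtap2-4, and Krtap31-1 and Krtap31-2 lie between Krtap9-1 and Krtap9-5. The cluster on chromosome 16 spans chr16:88610953-89571427 (mm9) and holds high sulfur genes such as Krtap24-1, Krtap13 and Krtap11-1 beside the high glycine-tyrosine families. Krtap28-10 and Krtap28-13 stand at chr1:83038098-83058495 (mm9). RefSeq uses another symbol for 8 members, among them Krtap8-2, which it calls Krtap19-5, and Krtap16-10, which it calls Krtap16-3. The only member that overlaps another gene area is Krtap5-3, which shares its span with Gm2414, so the reads of these genes cannot be told apart.

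Promoter windows of 300 bases, from 250 before to 50 after the start of transcription, were taken from RefSeq (assembly GRCm38.p6) for the 48 members matched by gene identifier. The following 6 are shown because they cover the range of CG content and belong to members with the extreme signals described below. They are written 5′ to 3′ on the strand of the gene, with CG dinucleotides in capitals. Krtap5-1 lies at chr7:142297085-142297384 on the minus strand, Krtap4-13 at chr11:99809847-99810146 (minus), Krtap17-1 at chr11:99993945-99994244 (minus), Krtap8-2 at chr16:88896400-88896699 (minus), Krtap24-1 at chr16:88612230-88612529 (minus) and Krtap28-13 at chr1:83060680-83060979 (plus), all in GRCm38.p6.
Krtap5-1: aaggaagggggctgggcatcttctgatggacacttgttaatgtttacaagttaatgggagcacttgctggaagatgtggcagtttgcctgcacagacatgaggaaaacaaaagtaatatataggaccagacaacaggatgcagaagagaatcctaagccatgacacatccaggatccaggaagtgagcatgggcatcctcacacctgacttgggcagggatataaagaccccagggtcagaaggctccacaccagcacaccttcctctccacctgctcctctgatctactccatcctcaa
Krtap4-13: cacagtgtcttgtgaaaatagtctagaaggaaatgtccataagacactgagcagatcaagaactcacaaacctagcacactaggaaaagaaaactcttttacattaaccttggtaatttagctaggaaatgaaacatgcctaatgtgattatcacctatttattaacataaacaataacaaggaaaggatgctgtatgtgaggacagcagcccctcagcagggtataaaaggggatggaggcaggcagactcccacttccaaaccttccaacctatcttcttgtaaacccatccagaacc
Krtap17-1: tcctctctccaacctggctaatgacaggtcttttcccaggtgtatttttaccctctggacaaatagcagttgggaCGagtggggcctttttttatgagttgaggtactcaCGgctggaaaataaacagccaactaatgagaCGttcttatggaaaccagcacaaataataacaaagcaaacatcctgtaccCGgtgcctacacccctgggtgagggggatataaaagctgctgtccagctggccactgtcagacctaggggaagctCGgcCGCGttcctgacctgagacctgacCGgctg
Krtap8-2: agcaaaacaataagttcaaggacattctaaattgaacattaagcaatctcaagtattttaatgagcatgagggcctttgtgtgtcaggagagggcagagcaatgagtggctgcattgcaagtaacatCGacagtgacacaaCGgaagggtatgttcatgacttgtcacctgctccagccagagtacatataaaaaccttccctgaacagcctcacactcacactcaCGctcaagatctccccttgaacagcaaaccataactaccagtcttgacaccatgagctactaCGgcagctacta
Krtap24-1: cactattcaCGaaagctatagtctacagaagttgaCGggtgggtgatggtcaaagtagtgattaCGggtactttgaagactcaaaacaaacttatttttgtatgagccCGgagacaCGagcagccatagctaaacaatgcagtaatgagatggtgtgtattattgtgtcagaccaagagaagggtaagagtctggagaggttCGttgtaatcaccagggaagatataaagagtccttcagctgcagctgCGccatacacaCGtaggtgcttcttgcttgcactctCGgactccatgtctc
Krtap28-13: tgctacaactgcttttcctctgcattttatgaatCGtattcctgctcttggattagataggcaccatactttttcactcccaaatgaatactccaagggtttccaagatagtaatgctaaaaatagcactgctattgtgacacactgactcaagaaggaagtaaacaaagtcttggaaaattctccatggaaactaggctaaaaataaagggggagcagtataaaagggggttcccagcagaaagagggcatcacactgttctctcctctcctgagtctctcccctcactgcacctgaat

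The Krtap promoters were poor in CG. The median window held 2 CG dinucleotides in the members, against 7 over 32851 RefSeq windows, and the range in the members was 0 to 9. No CG was present in 10 of the 48 windows (20.8%), against 5.43% of all windows. Of the 10, 2 are on chromosome 7, Krtap5-1 and Krtap5-2, and 8 on chromosome 11, 6 of them in family 4. The window of Krtap24-1 held 9 CG and that of Krtap17-1 held 8. The letters TATAAA, searched on both strands, stood in 39 of the 48 windows (81.2%), against 13.6% of all windows. On chromosome 11 the share was 18 of 19, and on chromosome 16 it was 15 of 22. A match describes the letters of the window and is not evidence of a bound factor.

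**Figure D1:**
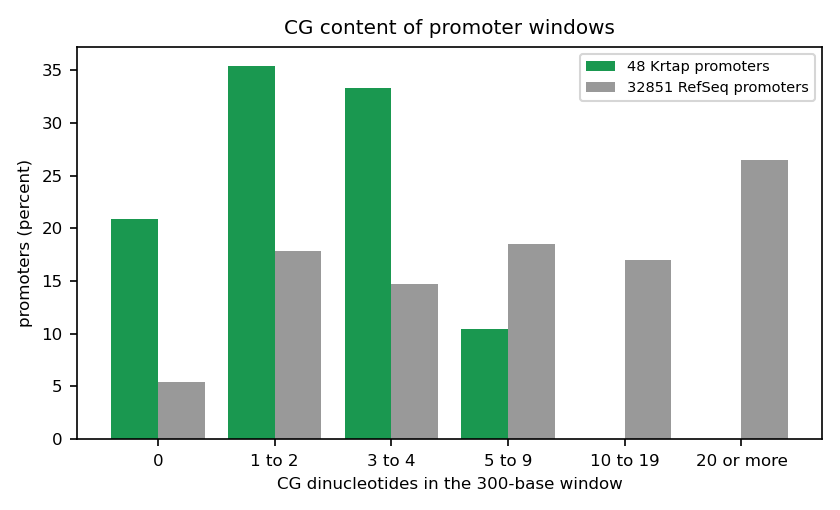
Number of CG dinucleotides in the 300-base promoter window (x axis, binned) against the percentage of promoters in each bin (y axis), for 48 Krtap promoters (green) and 32851 RefSeq promoters (grey). Of the Krtap windows, 89.6% held up to 4 CG, against 38.0% of all windows, and no Krtap window held 10 or more.

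Promoters of close paralogs shared long identical stretches, with 82 bases in common between Krtap31-1 and Krtap31-2 and 56 between Krtap16-1 and Krtap16-9. In all, 10 members shared an identical run of at least 36 bases with another member. How reads that match several places were treated is not given in the sources used here, so values of such neighbours are uncertain.

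Most Krtap gene areas carried less 5hmC signal than the typical gene area. The median 5hmC signal of the 55 members was 7.0 in Th1, 7.0 in Th2, 6.6 in the library labelled iTreg, 7.2 in that labelled Th17 and 5.1 in naive cells, against 10.9, 11.0, 11.0, 9.9 and 12.0 over all gene areas of the same libraries. Averaged over the 5 libraries, the median was 6.58 ± 0.86 in the members and 11.0 ± 0.74 over all gene areas (SD between cell types, n = 5), so the 2 sets of medians did not overlap. In rank, the median member stood between the 23.6th and the 35.5th percentile of the 5hmC libraries. The number of members above the median gene area was lowest in naive cells, at 12 of 55, and was 16 to 22 in the others.

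The 5mC signal was low everywhere, a few rounding steps above 0. The median of the members was 0.4 in Th1, 0.3 in each of Th2, iTreg and Th17, and 0.5 in naive cells, against 0.7, 0.6, 0.6, 0.6 and 0.7 over all gene areas. In each 5mC library the median of the members was thus 0.2 to 0.3 below that of all gene areas, which is 2 or 3 steps of the last printed digit. The median member stood between the 24.0th and the 34.4th percentile.

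Gene areas of the members' length had less signal than gene areas at large, and the members stood close to them. In the 9010 gene areas within the members' length band, from the 5th to the 95th percentile of their lengths, the median 5hmC signal was 5.8, 5.5, 5.8, 5.3 and 5.4 in the same order of libraries, and the median 5mC signal lay between 0.35 and 0.5. The members were above this band in 5hmC by 0.8 to 1.9 in the 4 libraries of differentiated cells, and below it by 0.3 in naive cells. Olfactory receptor genes, another short family outside the T cell programme, had 5hmC medians of 4.6, 4.6, 4.9, 4.4 and 4.1 over 1419 gene areas, lower than the members in every library. Beta defensin genes, at 14.2, 14.3, 14.4, 14.7 and 10.2 over 42 gene areas, were higher than the members in every library.

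**Figure D2:**
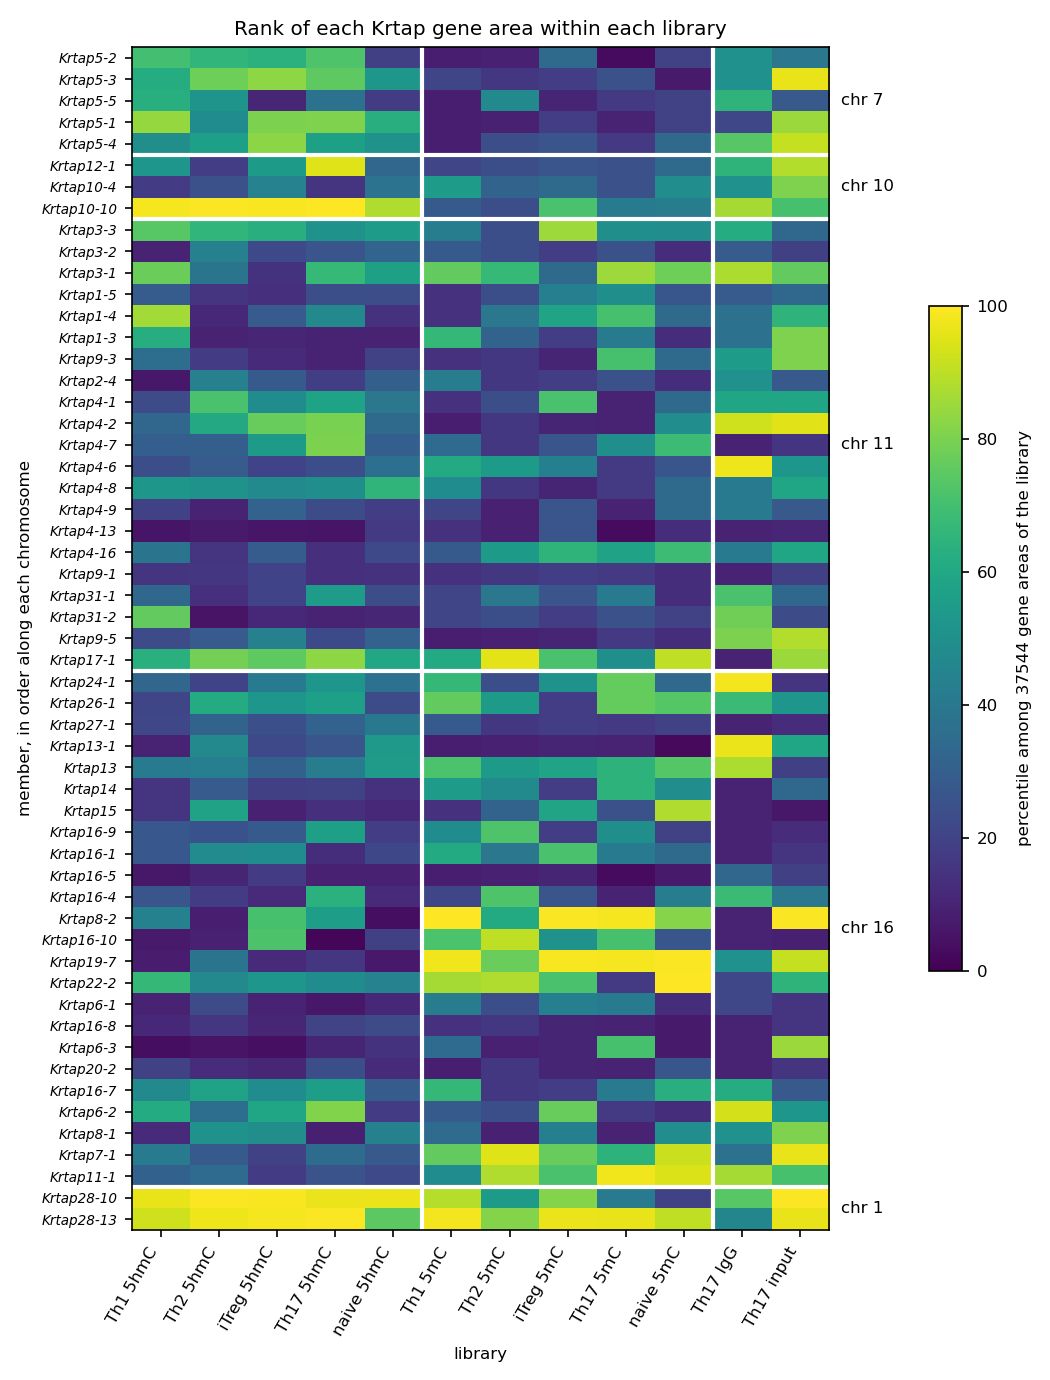
Rank of each Krtap gene area (rows, in order along each chromosome) within each of the 12 libraries (columns), coloured from 0 to 100 as the percentile among 37544 gene areas. Krtap10-10, Krtap28-10 and Krtap28-13 are bright across the 5hmC columns, most chromosome 7 genes are mid to bright in 5hmC and dark in 5mC, and several chromosome 16 genes are dark in 5hmC and bright in 5mC.

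The clusters differed in both marks. Averaged over the 5 libraries, the cluster median of 5hmC was 15.0 ± 3.4 on chromosome 7, 14.2 ± 11.2 on chromosome 10, 6.34 ± 0.82 on chromosome 11 and 5.36 ± 0.83 on chromosome 16 (SD between cell types, n = 5). The lowest median on chromosome 7 was 12.3 and the highest on chromosomes 11 and 16 were 7.4 and 6.65, so chromosome 7 lay above both in every library. Chromosome 10 could not be placed beyond its spread, since its medians ran from 5.5 to 33.7. Chromosomes 11 and 16 overlapped, with chromosome 11 the lower in Th2 and in the library labelled Th17. In 5mC chromosome 7 was the lowest and chromosome 16 the highest, with 0.20 ± 0.07 on chromosome 7, 0.40 ± 0.12 on chromosome 10, 0.34 ± 0.09 on chromosome 11 and 0.54 ± 0.10 on chromosome 16. The clusters also differed in length, with a median of 1177 bp on chromosome 7, 902 on chromosome 10, 935 on chromosome 11 and 607 on chromosome 16. Over the 55 members, Spearman's rho of length was 0.33 with mean 5hmC and -0.13 with mean 5mC. The part of length in the cluster levels was not tested. Neighbouring paralogs are not replicates, and no test was made between clusters.

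**Figure D3:**
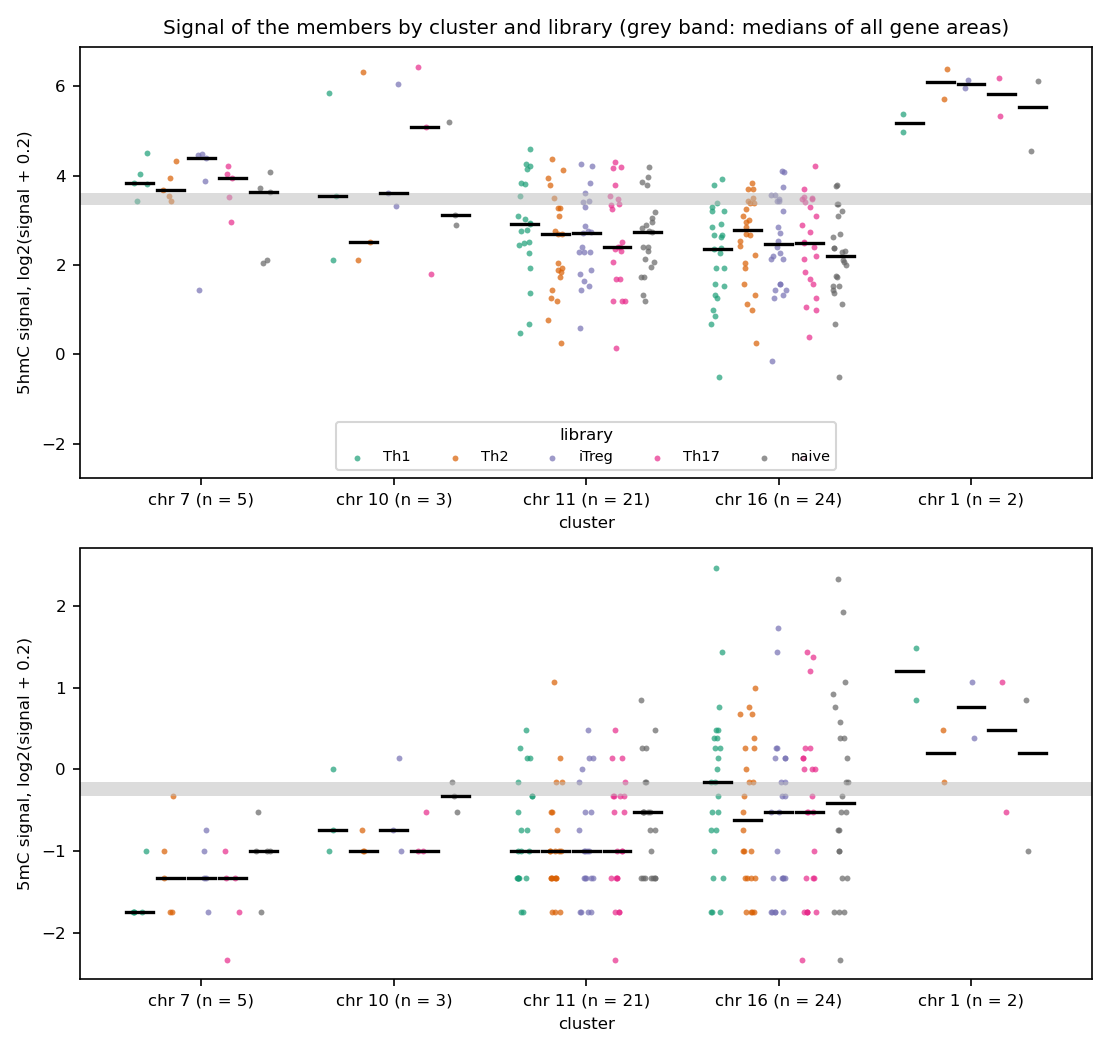
Signal of every member on the scale log2(signal + 0.2) (y axis), by cluster (x axis) and library (colour), in 5hmC (upper panel) and 5mC (lower panel), with a bar at the median of each cluster in each library and a grey band over the medians of all gene areas. In 5hmC the chromosome 7 medians lie at or above the band and those of chromosomes 11 and 16 below it; in 5mC the chromosome 7 medians are the lowest of the 4 main clusters.

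On chromosome 7, the Krtap5 genes had little 5mC, and Krtap5-1 and Krtap5-3 combined this with middling to high 5hmC. Krtap5-1 had 5hmC signals of 22.5 in Th1, 10.7 in Th2, 20.8 in the library labelled iTreg, 18.3 in that labelled Th17 and 16.8 in naive cells. Its 5mC signals were 0.1 in Th1, Th2 and Th17, 0.2 in iTreg and 0.3 in naive cells, and its IgG signal was 0.1. Krtap5-3 read 13.8, 20.0, 22.4, 16.2 and 13.0 in 5hmC in the same order, and at most 0.3 in 5mC. Krtap5-3 exceeded the median gene area in all 5 5hmC libraries and Krtap5-1 in 4 of them, Th2 being the exception, and both were below it in all 5 5mC libraries.

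The other Krtap5 genes were less even. Krtap5-2 read 16.2, 15.3, 14.5 and 15.2 in the 4 libraries of differentiated cells and 4.1 in naive cells, so naive cells stood apart from the rest. Krtap5-5 ranged from 2.5 in the library labelled iTreg to 14.1 in Th1, with 3.9 in naive cells. Krtap5-4 had the cluster's highest mean 5mC, at 0.28, with 5hmC between 10.7 and 22.0.

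On chromosome 10 one gene set the level. Krtap10-10 read 57.5 in Th1, 79.8 in Th2, 66.3 in the library labelled iTreg, 87.0 in that labelled Th17 and 36.7 in naive cells, and its mean rank was the 96.9th percentile of the 5hmC libraries. Its 5mC signal was 0.3 to 0.9 and its IgG signal 2.2. Krtap12-1 read 11.4, 4.1, 12.0, 33.7 and 7.3 in 5hmC, with the library labelled Th17 far above the others. Krtap10-4, the third member, had the lowest mean 5hmC of the cluster, at 6.24, and reached at most 9.8.

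On chromosome 11 no member reached these levels. Krtap17-1, an ultrahigh sulfur gene known from the human hair cuticle, had the highest mean 5hmC of the cluster, with 14.2, 20.6, 18.3, 19.5 and 15.6 in the 5 libraries. It also had the highest mean 5mC, with 0.9, 1.9, 0.9, 0.6 and 1.6, and was listed at 0 in IgG; its promoter, printed above, holds more CG than any other of this cluster. Krtap3-3, a high sulfur gene of the hair cortex, followed in 5hmC with 10.1 to 17.5. At the low end, Krtap4-13 read 1.2, 1.5, 1.3 and 0.9 in the libraries of differentiated cells and 3.7 in naive cells, with 5mC of 0.0 to 0.3 and a promoter without CG. Krtap9-1 read 3.0 to 4.7 in 5hmC and 0.2 in each 5mC library, and Krtap9-5 had the lowest mean 5mC of the cluster, at 0.14.

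On chromosome 16 the 5mC signals spread more widely than in the other clusters. Krtap8-2, a high glycine-tyrosine gene, had 5mC signals of 5.3 in Th1, 0.8 in Th2, 3.1 in iTreg, 2.4 in Th17 and 1.3 in naive cells, the highest mean of the cluster at 2.58. Its 5hmC signals were 9.6, 1.8, 16.7, 11.0 and 0.5, so Th2 and naive cells were the lowest in both marks. Its input signal was 3.3, near the top of the input library, and it was listed at 0 in IgG. Krtap22-2, of the same kind, read 1.5, 1.4, 0.9 and 0.2 in 5mC in the differentiated cells and 4.8 in naive cells, against a steady 9.6 to 15.1 in 5hmC.

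At the low end of chromosome 16 in 5hmC was Krtap6-3, a high glycine-tyrosine gene with the shortest area of all members at 216 bp. It read 0.5, 1.0, 0.7 and 2.2 in the differentiated cells and 3.2 in naive cells. RefSeq gives this gene 511 bp. Its promoter window ends at chr16:89084073 (GRCm38.p6), but its area starts at chr16:89092378 (mm9). For Krtap6-1 these positions are 89031748 and 89031943. The values of Krtap6-3, here and below, may therefore not be those of the RefSeq transcript. Krtap16-5 had the next lowest mean 5hmC, with 1.4 to 4.2. Krtap6-2 had the highest mean 5hmC of the cluster, at 11.4, reading 13.6, 7.9, 13.2 and 18.5 in the differentiated cells and 3.8 in naive cells. Krtap13-1, a high sulfur gene, shared the lowest mean 5mC, 0.08, with Krtap16-5, and read 0.1 in the 4 differentiated libraries and 0.0 in naive cells.

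The pair on chromosome 1 stood apart from the clusters. Krtap28-10 read 41.3, 83.5, 71.0, 40.2 and 69.6 in 5hmC, and Krtap28-13 read 31.2, 52.6, 62.6, 72.5 and 23.2. With Krtap10-10 they were the only members above 35 in any library. The nearest gene areas outside the pair read less in 5hmC, with 14.3 to 17.9 in Slc19a3, a thiamine transporter gene, 2.8 to 7.5 in Gm7539 and 3.8 to 5.7 in Gm7563. In input DNA both were high too, at 3.3 and 2.8 against a median of 1.7, which puts them at the 99.3th and 96.9th percentiles. The part of the input level in their 5hmC signal was not tested.

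Whether a member stood higher in 5hmC or in 5mC, relative to the median gene area, was tested with limma across all gene areas. Each library was first centred on its median gene area. Cell type was a block, so the error was the spread of the difference between 5hmC and 5mC over the 5 cell types. Members were called where the p adjusted by Benjamini and Hochberg's method was under 0.05 and the log2 difference was 1 or more in size. Of the 55 members, 7 were called higher in 5hmC, against a background of 9.61% of all gene areas, and 11 were called lower, against a background of 16.1%. The members' shares were 12.7% and 20.0%, both near the background. In the length band 4.81% were called higher and 31.9% lower, and among olfactory receptors 1.83% and 20.7%.

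The calls were spread unevenly over the clusters. Chromosome 7 had 4 of its 5 members higher and 0 lower, while chromosome 16 had 0 of 24 higher and 8 lower. In the length band the shares were 4.81% higher and 31.9% lower, and over all gene areas 9.61% and 16.1%. The median length was 1177 bp on chromosome 7 and 607 bp on chromosome 16. Whether the cluster counts differ from those of gene areas of like length was not tested. Of the 4 on chromosome 7, only Krtap5-1 kept its call with a pseudocount of 1 (1.12). Krtap5-3, Krtap5-4 and Krtap5-2 then fell below the rule (0.999, 0.62 and 0.60). The median 5mC signal of this cluster, 0.20, equals the pseudocount of 0.2. Chromosome 11 had 1 higher and 3 lower of 21, chromosome 10 had 1 higher of 3, and chromosome 1 had 1 higher of 2. The median log2 difference was 1.36 on chromosome 7, 0.62 on chromosome 10, -0.38 on chromosome 11 and -0.64 on chromosome 16, against -0.02 over all gene areas.

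Among the members called higher, Krtap10-10 had a log2 difference of 2.73 ± 0.27 (SE, adjusted p = 0.000216). Krtap28-10 followed with 2.23 ± 0.32 (adjusted p = 0.00121). On chromosome 7, Krtap5-1 reached 1.90 ± 0.26 (adjusted p = 0.000956) and Krtap5-3 reached 1.62 ± 0.21 (adjusted p = 0.000741). With a pseudocount of 1, Krtap5-3 fell just below the rule, at 0.999. In Krtap10-10, Krtap28-10, Krtap5-1 and Krtap5-3 the percentile in 5hmC was above that in 5mC in each of the 5 cell types. Krtap5-4, at 1.14, was called as well, but fell below the rule with a pseudocount of 1 (0.62) and without the iTreg and Th17 libraries (0.94, adjusted p = 0.0944). Krtap5-2, at 1.36 (adjusted p = 0.0466), and Krtap4-2, at 1.23 (adjusted p = 0.0479), stood just inside the threshold and lost the call when the libraries of any 1 differentiated cell type were left out (adjusted p = 0.0740 to 0.136 for Krtap5-2 and 0.0924 to 0.143 for Krtap4-2). Krtap4-2, an ultrahigh sulfur gene, read 7.4, 13.7, 19.0, 17.9 and 7.6 in 5hmC and 0.1, 0.2, 0.1, 0.1 and 0.7 in 5mC, with an IgG signal of 2.9.

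Among the members called lower, Krtap19-7, a high glycine-tyrosine gene named here after its values were seen, had a log2 difference of -3.41 ± 0.49 (adjusted p = 0.00135). It read 1.8, 8.4, 2.8, 3.4 and 1.4 in 5hmC and 2.5, 1.1, 2.5, 2.5 and 3.6 in 5mC, so 5mC was at or above 5hmC in Th1 and naive cells even as deposited. Krtap8-2 followed with -2.69 ± 0.46 (adjusted p = 0.00293), then Krtap16-10 with -2.60 ± 0.85 (adjusted p = 0.0406) and Krtap6-3 with -2.09 ± 0.44 (adjusted p = 0.00713). Krtap6-3 lost its call with quantile normalization (-1.21, adjusted p = 0.0821) and without the iTreg and Th17 libraries (adjusted p = 0.0743). Krtap16-10 read 17.0 in the 5hmC library labelled iTreg, 0.0 in that labelled Th17 and 1.6 to 4.1 in the others, and lost its call without Th1, Th2 or Th17 (adjusted p = 0.0891 to 0.106). Krtap4-13, at -1.40, was called at low levels of both marks. It too lost its call with quantile normalization (-0.34, adjusted p = 0.525) and without the iTreg and Th17 libraries (adjusted p = 0.0647). The remaining 6 called lower were Krtap11-1, Krtap6-1, Krtap7-1, Krtap14, Krtap4-16 and Krtap1-3, with differences of -1.77 to -1.22. Of these, Krtap1-3 lost the call without Th2 or Th17 (adjusted p = 0.0604 and 0.0547), and Krtap4-16 lost it without Th2, iTreg, Th17 or naive cells (adjusted p = 0.0512 to 0.0696). Krtap6-1 lost it without the iTreg and Th17 libraries (adjusted p = 0.0990).

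The split depends on the centring. With the values as deposited, 52 members were called higher in 5hmC and 0 lower, because the 5hmC libraries carry larger numbers throughout; no source used here gives the scaling between libraries. The spread of log2(signal + 0.2) over all gene areas was also wider in 5hmC, with an SD of 1.57 to 1.76, than in 5mC, with 0.91 to 0.96, and centring does not remove this. With quantile normalization, which equalises the spread, 10 members were called higher and 7 lower, and their median log2 difference became 0.0056, against -0.50 with centring.

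**Figure D4:**
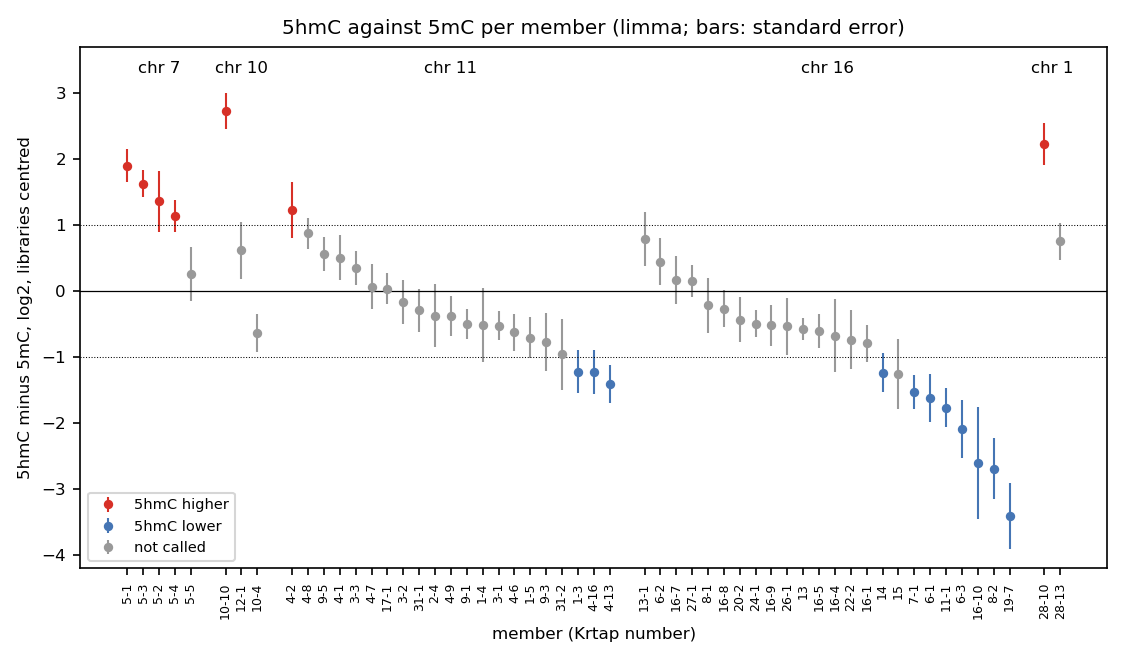
Log2 difference, 5hmC minus 5mC, after centring (y axis) for each of the 55 members (x axis, by cluster and in falling order), with bars of 1 standard error from limma. Red points were called higher in 5hmC, blue points lower and grey points neither; the chromosome 7 members lie above 0 and the 8 lowest points are 7 chromosome 16 genes and Krtap4-13 of chromosome 11.

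In 5hmC, the differentiated libraries were on median slightly above naive in the members and slightly below it over all gene areas. The median log2 difference of the mean of the 4 differentiated libraries from naive was 0.17 in the members and -0.17 over all gene areas, and 35 of 55 members were above 0 (63.6%), against 39.3% of all gene areas. It was 0.45 on chromosome 7, where all 5 members were above 0, 0.68 on chromosome 10, 0.04 on chromosome 11 and 0.23 on chromosome 16. Without Th1 the value of all members was 0.09. The chromosome 10 value became 0.18 without the library labelled Th17 and -0.09 without those labelled iTreg and Th17, and that of chromosome 11 fell below 0 in 4 of 9 alternatives, among them leaving out Th1, Th2 or the library labelled iTreg. Olfactory receptors had a median of 0.20, the length band 0.00 and hair keratins 0.16, so values near that of the members also occurred in other gene sets. The share above 0 was 61.0% in olfactory receptors, 48.5% in the length band and 71.4% in hair keratins. Scaling the libraries by median ratios raised the differences by 0.14 to 0.26, and the median of the members became 0.36.

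Members at least 2-fold away from naive were counted per library on the log2(signal + 0.2) scale. The 4 comparisons share the naive library and are not independent. In Th1, 8 members were higher (background 7.36%) and 8 lower (15.4%). In Th2, 12 were higher (background 7.48%) and 3 lower (14.8%). In the library labelled iTreg, 10 were higher (background 7.35%) and 4 lower (14.4%), and in that labelled Th17, 14 were higher (background 7.28%) and 6 lower (23.5%). As shares, 14.5% to 25.5% of the members were 2-fold higher and 5.45% to 14.5% were 2-fold lower, against 7.28% to 7.48% and 14.4% to 23.5% of all gene areas. The naive library was the highest of the 5 for 8 of 55 members (14.5%), against 37.6% of all gene areas. These shares were not computed for the length band. Its gene areas varied between the 5hmC libraries about as much as the members (median SD 0.63 and 0.65, against 0.43 over all gene areas). Whether the members differ here from other short gene areas was not tested.

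The members with the largest differences were scattered over the clusters. Krtap8-2 stood furthest above naive, with a log2 difference of 3.48 for the mean of the 4 libraries, over a naive signal of 0.5 that is near the pseudocount. Krtap5-2 followed with 1.85 and Krtap6-2 with 1.69, both with all 4 differentiated libraries above the naive one. The largest differences below naive were -1.55 in Krtap6-3, -1.47 in Krtap4-13 and -1.37 in Krtap13-1, which read 2.2, 10.3, 5.1 and 5.5 in the differentiated cells and 13.4 in naive cells. The IgG signal of Krtap13-1 was 4.3 and that of Krtap6-2 was 3.0, against a median of 0.8; the part of the IgG level in their 5hmC values was not tested.

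**Figure D5:**
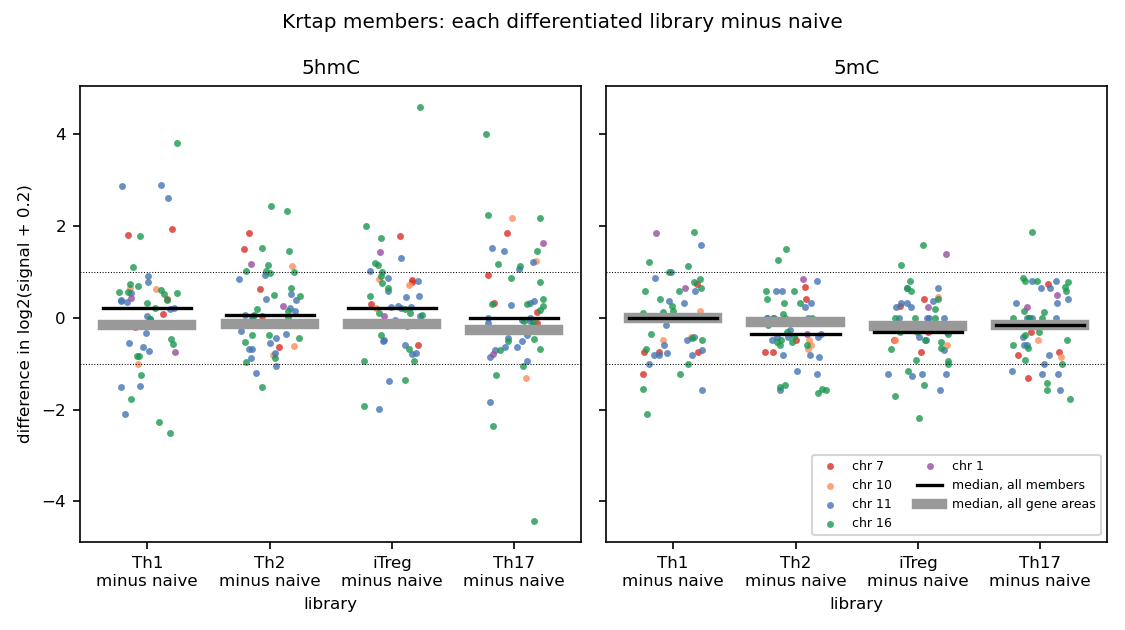
Difference in log2(signal + 0.2) between each differentiated library and the naive library of the same antibody (y axis), for the 55 members coloured by chromosome, in 5hmC (left) and 5mC (right). Black bars mark the median of the members, grey bars that of all gene areas and dotted lines the 2-fold rule; in 5hmC the black bars lie at 0.00 to 0.21, above the grey bars at -0.26 to -0.14.

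In 5mC the mean of the 4 differentiated libraries was on median below naive, both in the members and over all gene areas, but in Th1 alone both medians were 0.00. For the mean of the 4, the median log2 difference was -0.27 in the members and -0.11 over all gene areas, and 19 of 55 members were above 0 (34.5%), against 33.0% of all gene areas. It was -0.63 on chromosome 7, -0.47 on chromosome 10, -0.27 on chromosome 11 and -0.22 on chromosome 16. The chromosome 16 value was -0.36 without Th1 and -0.019 without iTreg and Th17. After scaling by median ratios, the median over all gene areas was -0.02 in Th1 and 0.00 in the others, and that of the members for the mean of the 4 was -0.19. By the 2-fold rule, 5 members were higher (background 2.95%) and 5 lower (3.47%) in Th1, 2 higher (2.17%) and 8 lower (4.63%) in Th2, 3 higher (1.84%) and 9 lower (6.44%) in iTreg, and 1 higher (2.14%) and 10 lower (5.48%) in Th17. At these levels a 2-fold difference is often 1 to 3 rounding steps, and with a pseudocount of 1 each of these counts was 2 or less. The 2-fold shares in 5mC were not computed for the length band either.

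The largest 5mC difference below naive was in Krtap22-2, at -2.26, followed by Krtap15, a high sulfur gene, at -1.57 and Krtap4-2 at -1.48. Krtap15 read 0.2, 0.4, 0.7 and 0.3 in the differentiated cells and 1.5 in naive cells. The largest differences above naive were 1.14 in Krtap28-10, which read 1.6, 0.7, 1.1 and 0.5 in the differentiated cells and 0.3 in naive cells, 0.98 in Krtap16-10 and 0.81 in Krtap8-2. The value of Krtap8-2 was 0.45 without Th1 and 1.27 without Th2, the library below naive.

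In 3 members all 4 differentiated libraries lay on opposite sides of naive in the 2 marks, against a background of 8.5% (Krtap4-7, Krtap13-1 and Krtap19-7), and a single library stood apart from the other 4 by Dixon's criterion in 10 members in 5hmC (background 13.9%) and 8 in 5mC (background 11.0%).

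Set against the controls, the members as a whole stood close to gene areas at large. For the 5hmC library labelled Th17, the median log2 ratio to IgG, after centring each library on its median gene area, was -0.23 in the members and -0.01 over all gene areas; for 5mC to IgG it was 0.00 and 0.10, and for input to IgG 0.34 and -0.12. By cluster, 5hmC to IgG was 0.61 on chromosome 7, 1.26 on chromosome 10, -0.66 on chromosome 11 and -0.23 on chromosome 16. The ratio of 5hmC to input was 0.04 on chromosome 7, 1.29 on chromosome 10, -0.64 on chromosome 11 and -0.60 on chromosome 16. Over all gene areas it was 0.07. The input median was 2.3 on chromosome 7 and 1.35 on chromosome 16, against 1.7 over all gene areas. Over the 55 members, Spearman's rho of mean 5hmC with input was 0.45. The part of the input level in the cluster values was not tested. On chromosome 7 the ratio of 5mC to IgG was -1.49, and on chromosome 16 it was 0.87. Both rest on values near the pseudocount of 0.2. The Th17 5mC median was 0.2 on chromosome 7. On chromosome 16 the IgG median was 0.25, with 10 of 24 members at 0, and the Th17 5mC median was 0.5. As deposited, 5hmC exceeded IgG in 54 of 55 members (98.2%), against 94.8% of all gene areas, and 5mC exceeded IgG in 21 of 55 (38.2%), against 37.9%.

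IgG signal was uneven along the clusters. The median was 0.8 both in the members and over all gene areas, but 14 of the 55 members were listed at 0, against 7328 of 37544 gene areas, 10 of the 14 being on chromosome 16. At the other end, Krtap24-1 read 5.2, Krtap4-6 read 4.6 and Krtap13-1 read 4.3, all above the 97th percentile, while their input signals were 1.0, 1.7 and 1.8 against a median of 1.7. No member was at 0 in input DNA, where the range was 0.5 to 3.3.

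The members varied more between cell types than gene areas at large and about as much as other short ones. The median SD of log2(signal + 0.2) over the 5 5hmC libraries was 0.65 in the members, 0.63 in the length band, 0.64 in olfactory receptors and 0.43 over all gene areas; in 5mC it was 0.53, 0.48, 0.50 and 0.26. As a description across the 55 members, whose points share libraries, Spearman's rho between pairs of 5hmC libraries was 0.38 to 0.66, against 0.77 to 0.87 over all gene areas. Between pairs of 5mC libraries it was 0.43 to 0.68, against 0.81 to 0.86. Between 5hmC and 5mC libraries it was -0.06 to 0.35 over 25 pairs, against 0.53 to 0.65.

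Over the 48 members with a promoter, the CG count of the window went with the mean 5mC signal of the gene area (rho = 0.53) more than with its mean 5hmC signal (rho = 0.04). Within chromosome 11 the rho was 0.36 with 5hmC and 0.60 with 5mC (n = 19), and within chromosome 16 it was 0.14 with 5hmC and 0.48 with 5mC (n = 22). The GC percentage of the window had a rho of 0.45 with 5hmC and 0.17 with 5mC over the 48 members. Within chromosome 11 its rho was 0.26 with 5hmC and 0.12 with 5mC (n = 19). Within chromosome 16 the order was reversed, with 0.38 for 5hmC and 0.59 for 5mC (n = 22). The members share libraries and, within a family, much of their sequence, so these values describe the 48 genes only. Most of the window lies before the start of transcription, so its CG count is not that of the stretch where signal was measured.

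Related genes of the hair and skin were set beside the members. The 14 hair keratins, whose products the keratin-associated proteins bind, had 5hmC medians of 9.6, 9.85, 10.9, 11.2 and 11.1, close to all gene areas, and 0 of 14 were called higher in 5hmC and 3 lower. Cornified envelope and inner root sheath genes, at 5.65, 3.8, 4.7, 5.05 and 3.65 over 44 gene areas, were lower than the members in every library, with 2 called higher and 3 lower. The 8 regulators of hair shaft genes, which include Lef1 and Gata3 with their roles in T cells, had medians of 13.5 to 20.9, with 2 called higher and 0 lower.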

How the data were processed

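Per the labels' protocols, genomic DNA was sonicated, denatured and precipitated with antibodies to 5mC or 5hmC or with control IgG. The authors deposited 1 table of signal values per gene area, and CASAVA 1.7.0 and mouse build mm9 are named per the submitters' processing notes. The sources used here do not state the alignment, the counting, any duplicate removal or how libraries were scaled to each other. Coordinates of gene areas are those of the deposited table, and whether they count from 0 or 1 is not stated.

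Of 37752 rows, 208 repeats of a symbol were left out, keeping the row with the highest mean, and 0 value columns were unused. Log2 values were taken after adding 0.2, which understates changes of low gene areas. The test of 5hmC against 5mC used limma 3.58.1 (R 4.3.3; trended empirical Bayes; cell types as blocks), no filter on low values and Benjamini-Hochberg adjustment over 37544 gene areas; the step was tested on simulated data. Other steps used Python 3.11.15, pandas 2.3.3, numpy 2.4.6 and matplotlib 3.10.9. Alternatives were other pseudocounts, scalings, filters and fold rules, and leaving out libraries.

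Members and gene lists were chosen with earlier results of these data known. Named with values are, per cluster, the 2 highest and 2 lowest members in mean 5hmC and the highest and lowest in mean 5mC; the 3 largest differences from naive each way per mark; the 3 highest in IgG and in input; up to 6 called higher in 5hmC; and the pair on chromosome 1. The plan to class proteins by composition was not carried out, as no protein sequences were used here; families are named from general knowledge. Of 55 gene identifiers, 53 matched RefSeq (GRCm38.p6), and 7 members had no promoter window.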

Additional observations from a re-analysis of the deposited data

Results flagged for a closer look

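With 5 libraries per mark, a library was taken to stand apart where its gap to the nearest other library was over 0.71 of the whole range (Dixon's 95% critical value). Chance flags about 1 in 20 groups, and 13.9% of all gene areas were flagged in 5hmC and 11.0% in 5mC, so the 10 and 8 of 55 members found here are near the background.

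In 5hmC, single high libraries were Th1 in Krtap1-3 (13.9) and Krtap31-2 (18.3), Th2 in Krtap15 (12.9) and Krtap19-7 (8.4), the library labelled iTreg in Krtap16-10 (17.0) and Krtap5-4 (22.0), that labelled Th17 in Krtap12-1 (33.7), and naive cells in Krtap4-8 (18.0) and Krtap4-13 (3.7). Krtap5-2 was low in naive cells (4.1). The median over all 55 members was also lowest in naive cells (5.1), and the chromosome 10 median was highest in the library labelled Th17, where it is the value of Krtap12-1 (33.7).

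In 5mC, naive cells were high in Krtap12-1 (0.5), Krtap4-2 (0.7), Krtap22-2 (4.8) and the chromosome 11 median (0.5), Th1 in Krtap2-4 (0.6) and iTreg in Krtap6-2 (1.0). Low values were 0.2 for Krtap31-2 in iTreg, 0.0 for Krtap13-1 in naive cells and 0.0 for Krtap16-5 in Th17. Apart from Krtap22-2, these gaps are a few steps of the last printed digit.

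In 3 members all 4 differentiated libraries moved one way from naive in 5hmC and the other way in 5mC, against 8.5% of all gene areas; the difference was not tested. As the mean of 4 libraries, the log2 differences in 5hmC and 5mC were 0.60 and -1.05 in Krtap4-7, -1.37 and 0.59 in Krtap13-1, and 1.21 and -0.76 in Krtap19-7. The chromosome 7 median did the same, with 0.31 to 0.78 in 5hmC and -0.74 to -0.32 in 5mC, and this was not tested either. Some of the differences in the 3 members are within a few steps of the last printed digit. The 5mC signal of Krtap13-1 was 0.1 in each differentiated library, against 0.0 in naive cells. The 5hmC signal of Krtap4-7 was 6.7 in Th1 and 6.6 in Th2, against 6.5 in naive cells.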

How the results depend on the processing

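Of 391 recomputed values, 318 stayed within the limits set for a change. The uncalled 5hmC median of chromosome 10 changed sign in 1 of 9 alternatives and that of chromosome 11 in 4 of 9. For the limma calls (7 members higher in 5hmC, 11 lower), leaving out both libraries of 1 cell type gave 5 to 7 higher and 9 to 12 lower. Without cell type as a replicate block, 7 were higher and 10 lower. A pseudocount of 1 gave 4 higher, and leaving out the libraries labelled iTreg and Th17 gave 4 higher and 6 lower. Quantile normalization gave 7 lower, the values as deposited gave 52 higher and 0 lower, and a filter at the 25th percentile of means, which 34 members pass, gave 3 lower.

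Against naive cells, a fold of 1.5 in place of 2 gave in 5hmC 15 higher and 13 lower in Th1, 12 lower in Th2, 19 higher and 11 lower in the library labelled iTreg, and 14 lower in that labelled Th17. For 5mC, Th1 had 16 higher and 17 lower by that rule, Th2 7 higher and 16 lower, iTreg 8 higher and 16 lower, and Th17 12 higher and 19 lower. The filter gave in 5hmC 5 higher and 3 lower in Th1, 0 lower in Th2, 2 lower in that labelled iTreg and 3 lower in that labelled Th17; in 5mC it gave 2 higher in Th1, 1 higher and 5 lower in Th2, and 0 higher and 6 lower in Th17. A pseudocount of 1 gave 1 lower in Th2 for 5hmC, and for 5mC Th1 had 2 higher and 2 lower, Th2 0 higher and 2 lower, and iTreg and Th17 each 0 higher and 1 lower. A pseudocount of 0.1 gave in 5mC 10 higher and 10 lower in Th1 and 4 higher in Th17, where median-ratio scaling gave 3 higher.

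For the median difference from naive in 5hmC, median-ratio scaling gave 0.36 over all members, 0.23 on chromosome 11 and 0.42 on chromosome 16. The mean over members gave 0.68 on chromosome 7, and leaving out the libraries labelled iTreg and Th17 gave 0.42 on chromosome 16. In 5mC, a pseudocount of 1 gave -0.084 over all members, -0.19, -0.21 and -0.068 on chromosomes 7, 10 and 11, and a pseudocount of 0.1 gave -0.85 and -0.55 on chromosomes 7 and 10. The mean over members gave -0.34 and -0.39 there, and median-ratio scaling gave -0.36 on chromosome 10. Leaving out 1 library at a time gave -0.74 to -0.40 on chromosome 7 and -0.49 to -0.34 on chromosome 10; the value nearest to 0 in each was that without Th17. For the cluster levels, a mean over members weighted by length replaced the median, so both the statistic and the weight changed. It gave 5hmC levels of 34.8, 7.60 and 6.74 on chromosomes 10, 11 and 16. Its 5mC levels were 0.43 and 0.73 on chromosomes 11 and 16. The log2 ratio of 5hmC to IgG in Th17 cells was 3.11 as deposited. The causes were not tested.

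One library per group, an unknown depth, an unknown scaling between libraries and rounding to 1 decimal limit every value, those of 5mC above all. Paralogs share sequence, and the sources used here do not say how reads that match several places were treated. The 5hmC labels of iTreg and Th17 are in doubt.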

Other observations

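Along chromosome 11, 5 members in a row had their highest 5hmC signal in Th1, a run chosen after its values were seen. From Krtap3-1 to Krtap9-3, at chr11:99427340-99459419 (mm9), the Th1 signals were 18.9 in Krtap3-1, 6.6 in Krtap1-5, 24.0 in Krtap1-4, 13.9 in Krtap1-3 and 8.0 in Krtap9-3, against 14.4, 5.1, 3.1, 2.1 and 4.2 in naive cells. In Krtap1-4 and Krtap1-3 the other 4 libraries read 2.5 to 9.3 and 2.1 to 2.5. All 5 are high sulfur or ultrahigh sulfur genes of the hair. On chromosome 16, Krtap27-1, Krtap13-1 and Krtap13 were all highest in naive cells, but the 2 gene areas between Krtap27-1 and Krtap13-1 were not, with 13.9 in Th1 and 11.1 in naive cells for Gm7667 and 6.7 and 4.0 for 2310061N02Rik. Over all neighbouring pairs of members, 13 of 50 had the same highest 5hmC library (26.0%), against 36.2% of all neighbouring gene areas and 21.8% of those in the length band.

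The table also holds 2 genes that RefSeq now names Krtap but that stand under other names, so they are no members. Gm11570 (Krtap16-1 in RefSeq, chromosome 11) read between 7.7 and 20.5 in 5hmC in the differentiated cells and 11.5 in naive cells. AY026312 (Krtap19-9b, chromosome 16) read 12.9, 10.0, 3.7 and 4.5, and 7.4 in naive cells.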
